A study of Rattus norvegicus with 16 samples.

Results

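The RNA of 10 proteins of the contractile unit of the heart muscle cell, the sarcomere, was followed in the infarct zone of rat hearts. The genes were chosen by name: the troponin subunits Tnnt2, Tnni3 and Tnnc1, the actin Actc1, the tropomyosin Tpm1, the myosin light chains Myl2 and Myl3, the myosin-binding protein Mybpc3, the Z-disc protein Actn2 and the M-band protein Myom2. All 10 had a row among the 17085 genes of the deposited tables, and all 10 passed the filter on low counts that left 11376 genes for testing. Bulk RNA sequencing covered 16 libraries, 4 in each of 4 groups. In the MI_stiff group the left anterior descending coronary artery was tied and the heart received a stiff hydrogel. In the MI_soft group the same artery was tied and a soft hydrogel was given. The MI group had the ligation without a gel, and the Sham group served as the control. All 3 infarct groups therefore share the ligation. The labels name the infarct zone as the tissue of every library, the Sham ones included, although a Sham heart has no infarct, and their extraction protocol speaks of Sham, MI and MI/R but of no hydrogel group. The site sampled in Sham hearts is therefore uncertain, as is whether it matches that of the infarct groups. The labels give no strain, age, gel composition or time after surgery, and nothing in them ties each library to its own animal. A p-value here measures only how far these samples spread, and that spread may be technical.

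The sarcomere is built from thin filaments of actin, tropomyosin and troponin that slide past thick filaments of myosin. Calcium binds troponin C, troponin I releases its hold on actin, and troponin T passes the movement on to tropomyosin, which uncovers the sites where myosin attaches. Alpha-actinin anchors thin filaments at the Z-disc, and myomesins link thick filaments at the M-band. Tnnt2 and Tnni3 proteins leaking from dying muscle cells are the blood markers used to diagnose infarction in patients.

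The promoters of Tnnt2, Tnni3 and Actc1 are shown as examples of thin-filament genes. Only promoters that start at the outer end of their gene were taken, and that of Actn2, which also does, is not shown. Tnni3 and Actc1 were lower in all 3 infarct groups, as were Actn2, Mybpc3 and Myom2. Tnnt2 was lower in MI_stiff and did not pass the test in MI_soft or MI. The sequences are from RefSeq, build GRCr8, and cover the 250 bases before the annotated start, 5′ to 3′ on the gene's strand. Capitals mark a match to AGATAA (bound by GATA factors) or CATTCC (the M-CAT element bound by TEAD factors), searched on both strands, so that TTATCT is the reverse of the first.
Tnnt2, chr13:49818873-49819122, plus strand: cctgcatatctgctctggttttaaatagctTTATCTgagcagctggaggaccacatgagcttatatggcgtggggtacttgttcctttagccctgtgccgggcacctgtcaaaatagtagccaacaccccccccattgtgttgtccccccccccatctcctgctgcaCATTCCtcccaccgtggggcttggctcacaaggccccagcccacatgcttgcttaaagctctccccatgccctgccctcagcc
Tnni3, chr1:78342321-78342570, plus strand: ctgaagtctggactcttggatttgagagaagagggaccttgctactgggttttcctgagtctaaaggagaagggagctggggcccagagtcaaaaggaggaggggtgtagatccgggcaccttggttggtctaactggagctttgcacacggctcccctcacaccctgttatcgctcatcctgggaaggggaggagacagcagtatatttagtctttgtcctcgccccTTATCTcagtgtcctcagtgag
Actc1, chr3:121271828-121272077, minus strand: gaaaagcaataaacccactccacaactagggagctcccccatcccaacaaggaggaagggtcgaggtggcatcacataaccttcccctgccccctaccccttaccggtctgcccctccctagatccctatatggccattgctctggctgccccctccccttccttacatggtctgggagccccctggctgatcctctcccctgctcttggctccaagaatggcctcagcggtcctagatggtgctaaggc
Tnnt2 held the GATA match 220 to 215 bases and the M-CAT match 83 to 78 bases before the start. Tnni3 held a GATA match 22 to 17 bases before the start. The Actc1 window held neither. RefSeq promoters were found for 7 of the 10 genes, 8 promoters in all. AGATAA was in 2 of these 8 and in 10.3% of all 33469 promoters, and CATTCC was in 3 of 8 and in 12.1% of all. The MEF2 site was in 1 of 8 (Mybpc3) and 2.96% of all, the CArG box was in 1 of 8 (Myl3) and 1.5% of all, and TATAAA was in 0 of 8 and 12.9% of all. A match describes the letters in the window and is no evidence of binding.

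Library totals lay between 10940685 and 14456186 counts, and Myl2 was the member with the fewest counts. MI 2, MI 3, MI 4 and MI_soft 4 had between 10470 and 11785 genes with a count, against 12019 to 12820 in the other libraries. MI 1 and MI_soft 2 stood apart by fast skeletal muscle genes: Tnnc2, the troponin C of fast skeletal muscle, was at 400 and 43.4 TPM in these libraries and at 0.61 TPM or less in all others. TPM counts transcripts per fixed total, corrected for length. The labelled tissue carried its defining markers: 13 cardiomyocyte genes outside the sarcomere summed to 13456 to 24374 TPM in MI_stiff, 17472 to 26554 TPM in MI_soft, 11955 to 21240 TPM in MI and 26173 to 41803 TPM in Sham. Fibroblast markers, 10 genes, summed to 3820 to 6715 TPM in MI_stiff, 3299 to 5475 TPM in MI_soft, 4270 to 8026 TPM in MI and 776 to 1054 TPM in Sham. In bulk tissue, fewer muscle cells and less RNA per muscle cell cannot be told apart.

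The 10 genes together made up 2.16% ± 0.618 of the TPM of the table in MI_stiff, 2.86% ± 0.417 in MI_soft, 2.17% ± 0.581 in MI and 3.88% ± 0.654 in Sham (SD, n = 4 each). Actc1, the cardiac actin, had the highest mean in every group, and Myl2 the lowest. In Sham the order by TPM was Actc1, Tnni3, Tpm1, Myl3, Tnnt2, Tnnc1, Actn2, Mybpc3, Myom2 and Myl2. There Actc1 stood clear of Tnni3, while Tnni3, Tpm1, Myl3 and Tnnt2 overlapped neighbour by neighbour. In MI, Tnnt2 was second, its range overlapping that of Actc1.

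**Figure D1:**
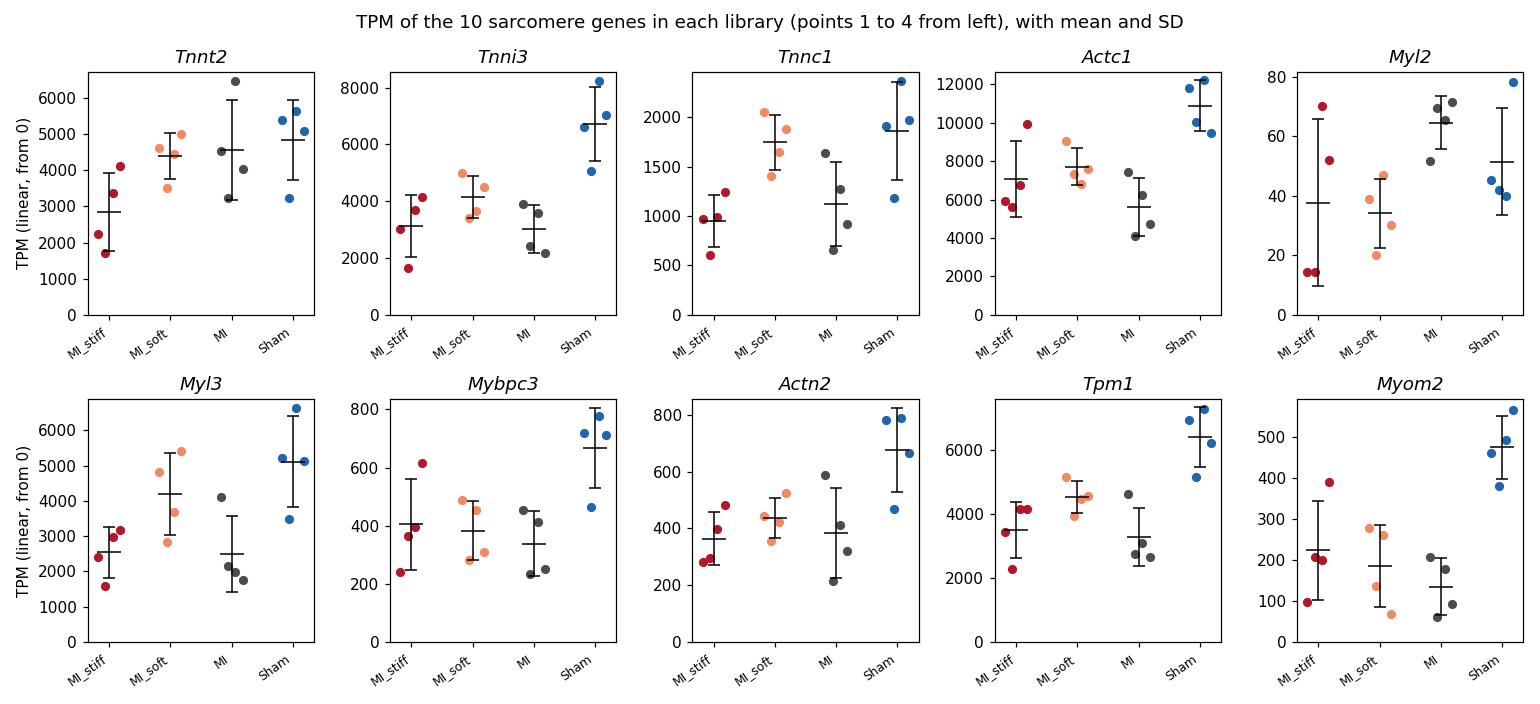
TPM of each of the 10 genes (vertical axes, linear from 0) in the 4 libraries of MI_stiff, MI_soft, MI and Sham, with the mean and SD of each group. Every infarct library lies below every Sham library for Tnni3 and Tpm1, while for Tnnt2 and Myl2 the groups overlap.

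Tnni3, the inhibitory subunit of cardiac troponin, had 3011, 1663, 3687 and 4134 TPM in MI_stiff, 4985, 3401, 3640 and 4498 TPM in MI_soft, 3909, 2410, 3583 and 2186 TPM in MI, and 6606, 5064, 8225 and 7018 TPM in Sham. Every one of the 12 infarct libraries was below every Sham library. Tnnt2, the subunit that ties troponin to tropomyosin, had 2241, 1701, 3359 and 4111 TPM in MI_stiff, 4611, 3512, 4451 and 5009 TPM in MI_soft, 4545, 3237, 6489 and 4030 TPM in MI, and 5399, 3229, 5653 and 5096 TPM in Sham. MI 3 was the highest library of all for Tnnt2, and MI_stiff libraries 1 and 2 were the lowest. Tnnc1, the calcium-binding subunit of heart and slow skeletal muscle, had 966, 609, 986 and 1248 TPM in MI_stiff, 2054, 1408, 1652 and 1881 TPM in MI_soft, 1641, 660, 1277 and 920 TPM in MI, and 1916, 1183, 2374 and 1978 TPM in Sham. All 4 MI_stiff libraries were below all 4 MI_soft libraries for Tnnc1, and Sham overlapped each infarct group.

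Actc1 had 5917, 5630, 6776 and 9920 TPM in MI_stiff, 9077, 7315, 6826 and 7606 TPM in MI_soft, 7430, 4078, 6227 and 4703 TPM in MI, and 11814, 10064, 12246 and 9468 TPM in Sham. Only MI_stiff 4 reached the Sham range. Tpm1, the tropomyosin that covers the myosin-binding sites on actin, had 3438, 2293, 4163 and 4156 TPM in MI_stiff, 5154, 3935, 4464 and 4577 TPM in MI_soft, 4632, 2763, 3104 and 2667 TPM in MI, and 6942, 5163, 7298 and 6246 TPM in Sham. All infarct libraries were below all Sham libraries, MI_soft 1 by the narrowest margin.

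Myl3, the essential light chain of the ventricle, had 2415, 1586, 2972 and 3181 TPM in MI_stiff, 4831, 2830, 3670 and 5409 TPM in MI_soft, 4098, 2147, 1970 and 1746 TPM in MI, and 5227, 3478, 6622 and 5130 TPM in Sham. The MI_stiff libraries lay below the Sham range, and MI 1 stood well above the other MI libraries. Mybpc3, cardiac myosin-binding protein C, had 241, 366, 394 and 617 TPM in MI_stiff, 487, 281, 455 and 310 TPM in MI_soft, 455, 235, 413 and 251 TPM in MI, and 719, 466, 777 and 712 TPM in Sham. The MI libraries were all below Sham, the lowest Sham library being only slightly above MI 1.

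Myl2, the regulatory light chain of the ventricle, is known as an abundant transcript of that chamber, but its row was low in every library. It had 14.4, 14.3, 70.2 and 52.0 TPM in MI_stiff, 39.0, 20.1, 47.0 and 30.3 TPM in MI_soft, 51.8, 69.7, 65.5 and 71.7 TPM in MI, and 45.5, 41.9, 40.1 and 78.3 TPM in Sham, all groups overlapping Sham. Its TPM was 0.56% to 4.1% of that of Myl3 in the same library, on 60 to 333 counts. The row is therefore an uncertain measure of the gene, and why it is low was not tested. In the gene reference Myl2 is also an older symbol of another gene, Myl11. The fast skeletal light chain has a row of its own, Mylpf. Whether the names bear on the low row was not tested.

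Actn2, alpha-actinin of the Z-disc, had 283, 295, 397 and 482 TPM in MI_stiff, 445, 355, 422 and 524 TPM in MI_soft, 588, 216, 411 and 322 TPM in MI, and 783, 470, 788 and 665 TPM in Sham. In each infarct group its highest library reached the lowest Sham library. Myom2, a myomesin of the M-band, had 97.3, 207, 200 and 389 TPM in MI_stiff, 279, 136, 260 and 69.3 TPM in MI_soft, 208, 59.8, 179 and 92.1 TPM in MI, and 460, 380, 492 and 567 TPM in Sham. It had the widest spread among infarct libraries of the members other than Myl2, with a coefficient of variation of 54.4% in MI_stiff, 54% in MI_soft and 52.1% in MI, against 16.3% in Sham.

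Ligation alone, MI against Sham, went with lower RNA of 8 of the 10 genes. Differences between groups were tested with edgeR's quasi-likelihood test on counts, called at a Benjamini-Hochberg adjusted p under 0.05 over all tested genes, and are given on the log2 scale of CPM, counts scaled to a common library total with TMM factors, with the standard error (SE). Of all tested genes, 36.6% were called in this comparison and 16.4% were lower. The median log2 difference of the 10 genes was -1.0, against 0.06 over all genes. In CPM the same number, 8, had all MI libraries below all Sham libraries, as had 20.3% of all genes. In TPM, Tnnc1, Myl3 and Actn2 overlapped Sham. Myom2 fell most, by 1.94 ± 0.35 (adjusted p = 0.000401), to 26% of the Sham level. Tnni3 fell by 1.21 ± 0.25 (adjusted p = 0.00123) and Myl3 fell by 1.13 ± 0.28 (adjusted p = 0.00424). Mybpc3 fell by 1.06 ± 0.22, Actc1 fell by 1.04 ± 0.21, Tpm1 fell by 0.96 ± 0.21 and Actn2 fell by 0.91 ± 0.24, with adjusted p of 0.00114, 0.00119, 0.00167 and 0.00759 in that order. Tnnc1 fell by 0.77 ± 0.24 (adjusted p = 0.0174). Tnnt2 did not pass the test: the difference was -0.09 ± 0.27 (adjusted p = 0.814, 95% interval -0.66 to 0.48), and without MI 1 and MI_soft 2 it was 0.01. Myl2 did not pass either, at 0.38 ± 0.41 (adjusted p = 0.499). With limma on log2(TPM + 1) Tnnc1 missed the threshold (adjusted p = 0.0557), as it did without MI 2. Leaving out the 4 libraries with few genes detected keeps MI 1, the library with skeletal muscle genes, as the one MI library, which the fit then takes to vary like the other groups. In that fit Tnnc1 (adjusted p = 0.0693) and Myl3 (adjusted p = 0.059) missed the threshold, and Myl2 stood at -0.53. Beside these falls, 12 of 13 tested cardiomyocyte genes outside the sarcomere were lower, 10 of 10 fibroblast genes and 7 of 9 macrophage genes were higher. Their part in the result was not tested.

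With the soft gel, MI_soft against Sham, 5 of the 10 genes were lower, where 26% of all genes were called and 9.7% were lower. The median of the 10 was -0.63, against 0.01 over all genes. In CPM, 3 genes did not overlap between the groups, as was so for 20% of all genes in that direction. In TPM, Tnni3, Actc1, Tpm1 and Myom2 did not overlap, and Mybpc3 did. Myom2 fell by 1.56 ± 0.34 (adjusted p = 0.00292), Mybpc3 fell by 0.92 ± 0.22 (adjusted p = 0.00452) and Tnni3 fell by 0.76 ± 0.25 (adjusted p = 0.0305). Actn2 fell by 0.67 ± 0.24 and Actc1 fell by 0.59 ± 0.21, close to the threshold (adjusted p = 0.049 and 0.0475). Tpm1 differed by -0.52 ± 0.21 (adjusted p = 0.071), Myl3 by -0.31 ± 0.27 (adjusted p = 0.414), Tnnt2 by -0.18 ± 0.27 (adjusted p = 0.644), Tnnc1 by -0.13 ± 0.23 (adjusted p = 0.711) and Myl2 by -0.70 ± 0.42 (adjusted p = 0.223). The count depends on the test and the libraries. With limma on log2(TPM + 1) it was 1, Myom2, while Mybpc3 (adjusted p = 0.0586), Tnni3 (0.094), Actn2 (0.123) and Actc1 (0.167) missed the threshold. It was 2 without MI 1 and MI_soft 2, where Tnni3, Actc1 and Actn2 missed the threshold. It was 2 without any of MI_soft 1, MI_soft 2, MI_soft 3, Sham 2 or Sham 3. It was 3 without any of MI_stiff 1, MI_stiff 3, Sham 1 or Sham 4, and 7 without MI_soft 4. In MI_soft 4, Tnnt2 and Actn2 stood far above the other MI_soft libraries in CPM, but less so in TPM. Cardiomyocyte genes outside the sarcomere were lower in 9 of 13, fibroblast genes higher in 9 of 10 and macrophage genes higher in 9 of 9. Their part in the result was not tested.

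With the stiff gel, MI_stiff against Sham, 9 of the 10 genes were lower, where 21.2% of all genes were called and 8.44% were lower. The median of the 10 was -1.16, against 0.02 over all genes. In CPM, 9 genes had all MI_stiff libraries below all Sham libraries, as had 19.1% of all genes. In TPM only Tnni3, Myl3 and Tpm1 did, and the other members overlapped. Myom2 fell by 1.46 ± 0.34 (adjusted p = 0.00554) and Tnni3 fell by 1.40 ± 0.25 (adjusted p = 0.000666). Myl3 fell by 1.29 ± 0.28, Actn2 fell by 1.20 ± 0.24, Tnnc1 fell by 1.19 ± 0.24 and Tpm1 fell by 1.12 ± 0.21, with adjusted p of 0.00284, 0.00186, 0.00166 and 0.000887 in that order. Tnnt2 fell by 1.08 ± 0.27 (adjusted p = 0.00909), to 47.4% of the Sham level. Mybpc3 fell by 1.06 ± 0.22 and Actc1 fell by 0.95 ± 0.21 (adjusted p = 0.00193 and 0.0039). Myl2 differed by -0.79 ± 0.42 and did not pass (adjusted p = 0.195). On the TPM scale with limma the count was 5, with Tnnt2, Actc1, Mybpc3 and Myom2 missing the threshold. Cardiomyocyte genes outside the sarcomere were lower in 9 of 13, fibroblast genes higher in 9 of 10 and macrophage genes higher in 9 of 9. Their part in the result was not tested. The 3 comparisons share the Sham libraries, so their values are not independent of each other.

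**Figure D2:**
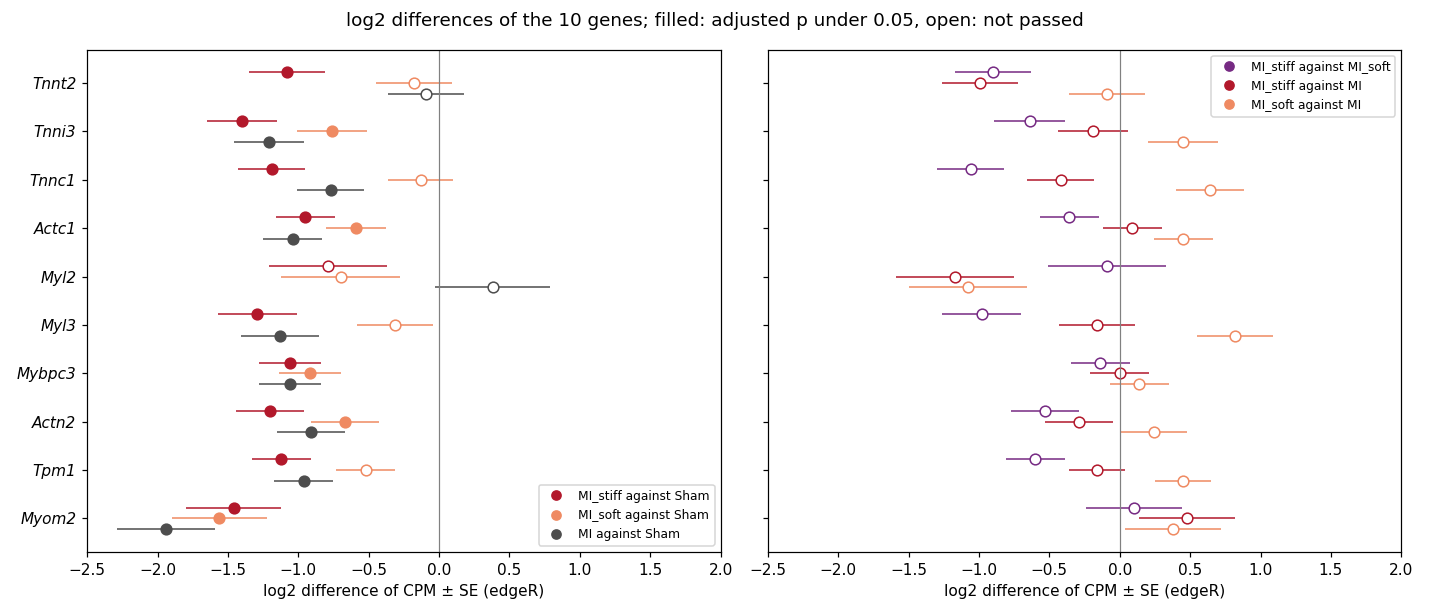
log2 differences of CPM ± SE (horizontal axes) of the 10 genes, each infarct group against Sham (left) and the infarct groups against each other (right); filled points passed an adjusted p under 0.05. Against Sham, 9 genes passed in MI_stiff, 5 in MI_soft and 8 in MI, and among the infarct groups 0 passed.

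Between the infarct groups no member passed the test. The soft gel against ligation alone, MI_soft against MI, gave 0 calls among the 10, with 0.0264% of all genes called. Under an unadjusted p of 0.05 were 5 members and 1761 of all 11376 genes. DESeq2 called 0 members too. Myl3 differed by 0.82 ± 0.27 (adjusted p = 0.187, 95% interval 0.24 to 1.40), Tnnc1 by 0.64 ± 0.24 (adjusted p = 0.221, interval 0.14 to 1.14), and Actc1, Tpm1 and Tnni3 by 0.45 each (adjusted p = 0.317, 0.308 and 0.392). Myom2 differed by 0.38 ± 0.34 (adjusted p = 0.602), Actn2 by 0.24 ± 0.24 (adjusted p = 0.648), Mybpc3 by 0.14 ± 0.21 (adjusted p = 0.776), Tnnt2 by -0.09 ± 0.27 (adjusted p = 0.89) and Myl2 by -1.08 ± 0.42 (adjusted p = 0.243). For Tpm1 alone the CPM did not overlap, MI_soft being higher, as it was for 2.55% of all genes. In TPM, Tpm1 overlapped between these groups. Without MI 1 and MI_soft 2, Myl3 passed at 1.08 (adjusted p = 0.0352), and 1131 genes in all were called, against 3 with all libraries.

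The stiff gel against ligation alone, MI_stiff against MI, also gave 0 calls among the 10, with 1.19% of all genes called. Under an unadjusted p of 0.05 were 2 members and 1939 of all 11376 genes. DESeq2 called 1 member. Tnnt2 differed by -0.99 ± 0.27 (adjusted p = 0.08, 95% interval -1.56 to -0.42), with all MI_stiff libraries below all MI libraries in CPM, as for 3.9% of all genes. In TPM, Tnnt2 overlapped between these groups. Without MI 1 and MI_soft 2 it passed (-1.12, adjusted p = 0.0221), as it did without MI 1 alone or MI_soft 4 alone. Myl2 differed by -1.17 ± 0.42 (adjusted p = 0.168), and passed without the same libraries (-1.37, adjusted p = 0.0487). Tnnc1 differed by -0.42 ± 0.24, Actn2 by -0.29 ± 0.24, Tnni3 by -0.19 ± 0.25, Myl3 by -0.16 ± 0.27, Tpm1 by -0.16 ± 0.20, Actc1 by 0.09 ± 0.21 and Myom2 by 0.48 ± 0.34, with adjusted p between 0.369 and 0.862. Mybpc3 averaged 1647 ± 350 CPM in MI_stiff and 1647 ± 342 CPM in MI (SD, n = 4 each), a log2 difference of 0.00 ± 0.21 (interval -0.45 to 0.45).

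The gels against each other, MI_stiff against MI_soft, gave 0 calls, with 0.0967% of all genes called. Under an unadjusted p of 0.05 were 6 members and 1631 of all 11376 genes. DESeq2 called 2 members, Tnnc1 and Myl3. Tnnc1 averaged 223 ± 43.4 CPM in MI_stiff and 465 ± 148 CPM in MI_soft (SD, n = 4 each), a difference of -1.06 ± 0.24 (adjusted p = 0.0746, 95% interval -1.56 to -0.56). Myl3 differed by -0.98 ± 0.28 (adjusted p = 0.136), Tnnt2 by -0.90 ± 0.27 (adjusted p = 0.156), Tnni3 by -0.64 ± 0.25 (adjusted p = 0.259), Tpm1 by -0.60 ± 0.21 (adjusted p = 0.206) and Actn2 by -0.53 ± 0.24 (adjusted p = 0.326). Actc1 differed by -0.36 ± 0.21, Mybpc3 by -0.14 ± 0.21, Myl2 by -0.09 ± 0.42 and Myom2 by 0.10 ± 0.34, with adjusted p of 0.448, 0.785, 0.936 and 0.906 in that order. Tnnt2, Tnnc1, Myl3, Actn2 and Tpm1 had all MI_stiff libraries below all MI_soft libraries in CPM, as had 6.87% of all genes. In TPM this held for Tnnc1 only, and Tnnt2, Myl3, Actn2 and Tpm1 overlapped. Tnnc1 passed without the 4 libraries with few genes detected (-0.82, adjusted p = 0.027). A miss of the threshold does not show that the gels act alike, and the intervals of 6 members leave out 0 before adjustment.

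Members were also set against each other within a library, as log2(TPM + 1) less the mean of the 10 genes, and compared with a two-sided exact permutation test, whose smallest p with 4 against 4 libraries is 0.0286. No member passed after adjustment over the 10 in any comparison. With that smallest p, a pass needs most of the 10 to reach it at once, so nothing is concluded from its absence. In MI against Sham, Tnnt2 stood 0.76 higher among the 10, Tnni3 0.32 lower and Myom2 1.10 lower (difference -0.32 and -1.10, exact permutation p = 0.0286, adjusted p = 0.0952 each), each without overlap. The mean of the 10 includes the uncertain Myl2 row, whose relative level differed by 1.23 here. Under the alternatives, among them a mean without Myl2, Tnnt2 ran from 0.76 to 0.90, Tnni3 from -0.32 to -0.18 and Myom2 from -1.13 to -0.97. In MI_soft against Sham, Tnnt2 (0.45), Tnnc1 (0.51) and Myom2 (-0.96) gave the same p and adjusted p in the exact permutation test. In MI_stiff against Sham the differences ran from -0.32 for Myom2 to 0.26 for Actc1, and the groups overlapped for all 10. In MI_stiff against MI, the relative level of Tnnt2 was lower by a difference of -0.66 and that of Actc1 higher by 0.39 (exact permutation p = 0.0286, adjusted p = 0.143 each). In MI_soft against MI, Tnnc1 gave 0.42 and Myl2 -1.24 (exact permutation p = 0.0286, adjusted p = 0.143 each). In MI_stiff against MI_soft, Tnnt2 gave -0.35 (exact permutation p = 0.0286, adjusted p = 0.286).

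Several members have a partner isoform that is used in fetal heart, atrium or skeletal muscle, and 6 of 8 such pairs could be computed. The ratio is log2 of (TPM + 1) of the partner over that of the member. Against Sham, 4 of the 6 ratios passed in MI_soft, with Acta1, Tpm2, Tnni1 and Tnnt1 higher relative to the member, and 0 passed in MI or MI_stiff. The adjustment ran over the 6 computed pairs, and a pass depends on how many of them reach the smallest p together. Acta1, Tpm2 and Tnni1 reached it in MI too, with larger differences than in MI_soft, and Acta1, Tpm2 and Tnnt1 in MI_stiff. The counts therefore do not rank the groups. A ratio also rises where the member falls. In MI_stiff against Sham, edgeR did not call Acta1 (0.13, adjusted p = 0.803), Tpm2 (0.35, 0.668) or Tnnt1 (0.74, 0.643). Their members Actc1, Tpm1 and Tnnt2 differed by -0.95, -1.12 and -1.08. In MI_soft it called Acta1, Tpm2 and Tnnt1 higher but not Tnni1. In MI it called Tpm2, Tnni1 and Tnnt1 higher but not Acta1. Acta1, the skeletal actin also expressed in fetal and stressed heart, had 1133, 1943, 1753 and 2409 TPM in MI_stiff, 2221, 3553, 2436 and 1952 TPM in MI_soft, 5473, 1624, 1768 and 1471 TPM in MI, and 1508, 1443, 1344 and 953 TPM in Sham. Its log2 ratio to Actc1 averaged -1.98 ± 0.35 in MI_stiff, -1.63 ± 0.46 in MI_soft, -1.32 ± 0.62 in MI and -3.07 ± 0.23 in Sham (SD, n = 4 each), and every infarct library was above every Sham library. The difference was 1.44 in MI_soft against Sham (exact permutation p = 0.0286, adjusted p = 0.0429), 1.75 in MI against Sham and 1.09 in MI_stiff against Sham (exact permutation p = 0.0286, adjusted p = 0.0571 each).

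Tpm2, beta-tropomyosin, which skeletal and smooth muscle also use, had 26.2, 18.6, 42.2 and 42.4 TPM in MI_stiff, 87.5, 135, 148 and 82.8 TPM in MI_soft, 374, 279, 40.6 and 128 TPM in MI, and 33.5, 5.02, 18.6 and 20.1 TPM in Sham. Its ratio to Tpm1 was above Sham in every infarct library. The difference was 3.19 in MI_soft against Sham (exact permutation p = 0.0286, adjusted p = 0.0429), 4.16 in MI against Sham and 1.78 in MI_stiff against Sham (exact permutation p = 0.0286, adjusted p = 0.0571 each). The ratio was lower in every MI_stiff library than in every MI_soft library (difference -1.41) and every MI library (difference -2.38), with exact permutation p = 0.0286 and adjusted p = 0.171 in each. Smooth muscle and pericyte markers, 8 genes with a row, summed to 819 to 1313 TPM in MI_stiff, 1522 to 2211 TPM in MI_soft, 709 to 2520 TPM in MI and 907 to 1611 TPM in Sham. The sum includes Des, also listed here as a Z-disc gene, at a mean of 1420 CPM in MI_stiff and 2608 CPM in Sham. Gene by gene, the median log2 difference from Sham was 0.68 in MI_stiff, 0.61 in MI_soft and 0.76 in MI. It was -0.58 in MI_stiff against MI and -0.90 in MI_stiff against MI_soft. Their part in the Tpm2 ratio was not tested.

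Tnni1, the slow skeletal troponin I that the fetal heart also uses, stayed far below Tnni3: it had 4.27, 0.59, 0.25 and 5.16 TPM in MI_stiff, 3.61, 8.02, 4.12 and 1.35 TPM in MI_soft, 66.1, 3.33, 7.58 and 1.47 TPM in MI, and 0.59, 0.94, 1.01 and 0.69 TPM in Sham. Its ratio to Tnni3 differed by 2.09 in MI_soft against Sham (exact permutation p = 0.0286, adjusted p = 0.0429), by 3.48 in MI against Sham (exact permutation p = 0.0286, adjusted p = 0.0571) and by 1.82 in MI_stiff against Sham (exact permutation p = 0.0571, adjusted p = 0.0686). Tnnt1, the slow skeletal troponin T, had 0.76, 0.44, 1.3 and 1.37 TPM in MI_stiff, 4.73, 5.95, 4.74 and 2.20 TPM in MI_soft, 72.2, 6.86, 0.48 and 2.86 TPM in MI, and 0.62, 0.30, 0.74 and 0.22 TPM in Sham. Its ratio to Tnnt2 differed by 1.96 in MI_soft against Sham (exact permutation p = 0.0286, adjusted p = 0.0429) and by 1.22 in MI_stiff against Sham (exact permutation p = 0.0286, adjusted p = 0.0571). In MI against Sham it differed by 2.48 (exact permutation p = 0.143, adjusted p = 0.171), although the ratio of MI 3, -12.1, lay below every Sham library. The high values of MI 1 for Tnni1, Tnnt1 and Acta1 stand beside 998 TPM of Mylpf, the fast skeletal regulatory light chain, in the same library, against 9.7 TPM or less in the other MI libraries; their part in these ratios was not tested. Tnnc2 over Tnnc1 passed in no comparison on this scale, with differences of 1.15 in MI_stiff, 1.33 in MI_soft and 2.83 in MI, each against Sham. The difference was -0.14 in MI_soft without MI_soft 2 and 0.88 in MI without MI 1. On log2(CPM + 1) the ratio passed in MI_stiff (1.25, exact permutation, adjusted p = 0.0343) and in MI (2.31, exact permutation, adjusted p = 0.0429) against Sham. Tnnc2 itself had at most 2 counts in MI_stiff and 1 in Sham, and 0 TPM in MI 2, MI 3 and MI 4. In these libraries the ratio therefore mainly follows Tnnc1 and does not show a change of Tnnc2. Myl7, the atrial light chain, over Myl2 passed in no comparison.

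**Figure D3:**
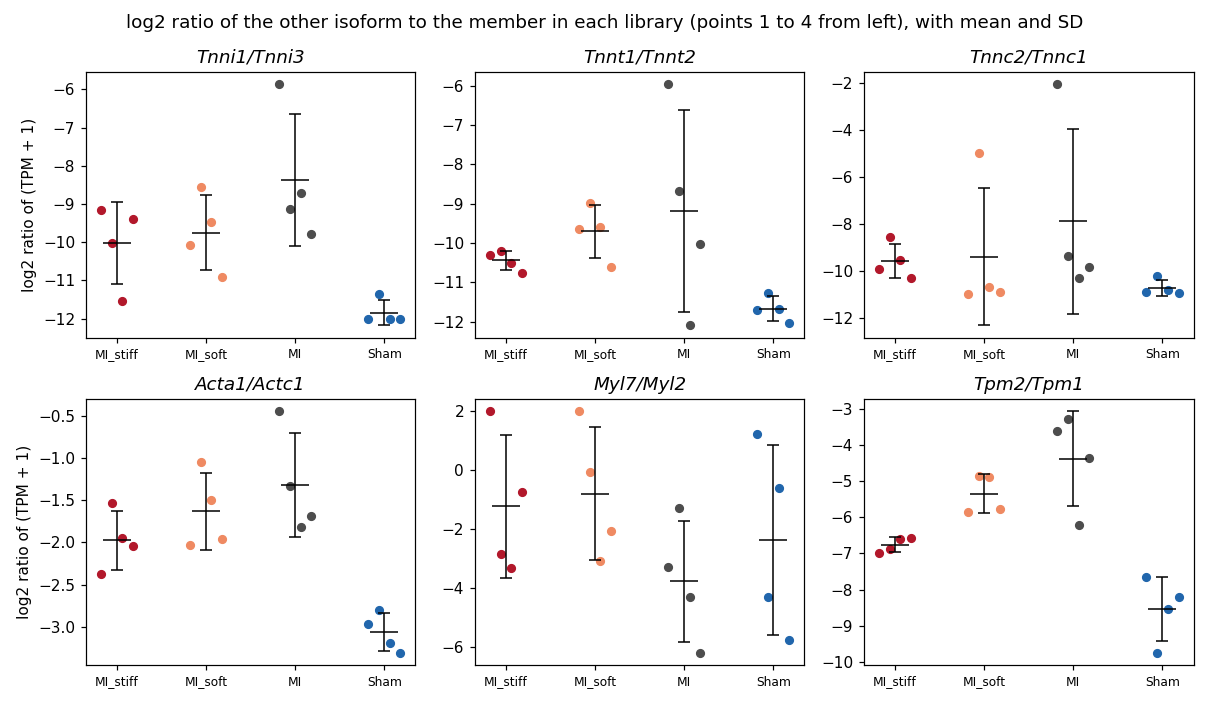
log2 ratio of (TPM + 1) of the partner isoform to the member (vertical axes) in the 4 libraries of MI_stiff, MI_soft, MI and Sham, with mean and SD. For Acta1/Actc1 and Tpm2/Tpm1 all infarct libraries lie above all Sham libraries, and MI 1 is the highest MI library for Tnni1/Tnni3, Tnnt1/Tnnt2, Tnnc2/Tnnc1 and Acta1/Actc1.

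Other genes of the sarcomere moved in both directions after ligation. Of 55 listed thin-filament, thick-filament, M-band, Z-disc, assembly and turnover genes, 45 had a row and 43 were tested. In MI against Sham, 13 were higher and 17 lower, with a median of -0.46, where 20.2% of all genes were higher and 16.4% lower. Myh6, the alpha myosin heavy chain of the adult rodent heart, fell by 3.24 ± 0.43 (adjusted p = 2.39e-05). Smyd1, a methyltransferase needed for thick-filament assembly, fell by 2.18 ± 0.31 (adjusted p = 4.93e-05). Xirp1, an actin-binding protein of the intercalated disc, fell by 2.24 ± 0.41, Pdlim5, a Z-disc LIM protein, fell by 2.12 ± 0.46 and Cmya5, the costameric protein myospryn, fell by 2.80 ± 1.05 (adjusted p = 0.000452, 0.00171 and 0.0457). The largest rises were of skeletal muscle genes: Myl1, a fast skeletal light chain, rose by 7.25 ± 0.82 (adjusted p = 5.61e-06), the fast skeletal troponin T gene Tnnt3 by 5.97 ± 1.21 (adjusted p = 0.00109), Tnnt1 by 5.03 ± 1.0 (adjusted p = 0.000947), Tnni1 by 4.12 ± 1.01 (adjusted p = 0.00449) and the Z-disc gene Myoz1 by 3.59 ± 0.73 (adjusted p = 0.00115). Without MI 1 and MI_soft 2 these 5 were smaller but passed, at 5.88, 2.88, 2.98, 2.35 and 2.41 in that order. In that fit 11 of the 43 were higher and 21 lower, where 2195 of all 11491 genes were higher and 2337 lower. Of these rises, Tnnt3 (adjusted p = 0.106), Tnnt1 (0.0603) and Tnni1 (0.0525) missed the threshold with limma-voom. The Cmya5 call was lost under 17 of 27 alternatives, with adjusted p up to 0.394, the highest with MI 1 as the one MI library.

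**Figure D4:**
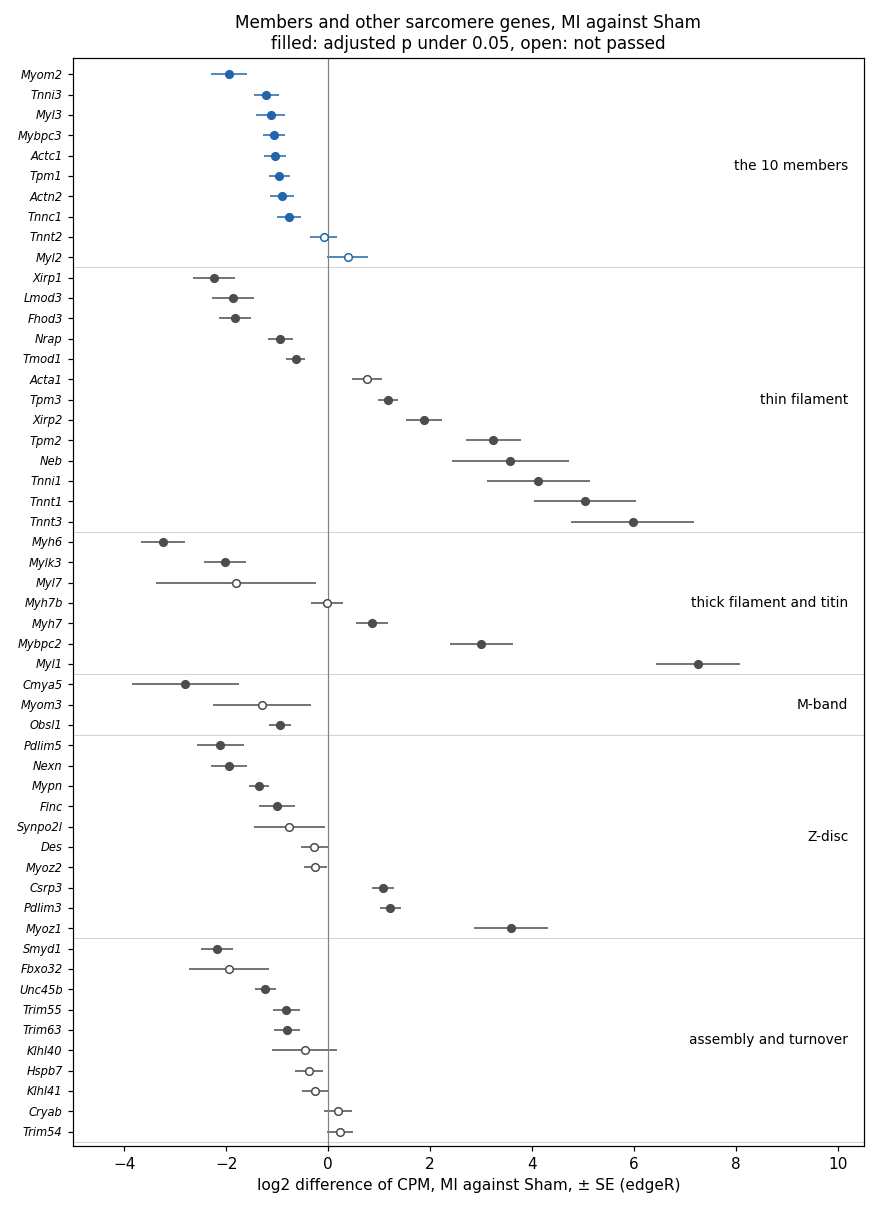
log2 difference of CPM ± SE (horizontal axis) in MI against Sham for the 10 members (blue, top) and 43 other sarcomere, assembly and turnover genes by list; filled points passed an adjusted p under 0.05. Of the 10 members 8 were lower, while the other genes spread from Myh6 at -3.24 to Myl1 at 7.25.

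In MI_soft against Sham, 12 of the 43 were higher and 11 lower, with a median of -0.09, where 16.4% of all genes were higher and 9.7% lower. Myh6 fell by 2.63 ± 0.42 (adjusted p = 0.000203) and Smyd1 fell by 1.94 ± 0.31 (adjusted p = 0.00019). Mylk3, the cardiac kinase of the regulatory light chain, fell by 1.49 ± 0.40, Nexn, the Z-disc protein nexilin, fell by 1.42 ± 0.35 and Xirp1 fell by 1.41 ± 0.40 (adjusted p = 0.0109, 0.00587 and 0.014). Myl1 rose by 5.89 ± 0.79, Tnnt3 by 4.39 ± 1.15, Tnnt1 by 3.04 ± 0.95, Myoz1 by 2.62 ± 0.71 and Mybpc2, the fast skeletal myosin-binding protein C, by 2.53 ± 0.61 (adjusted p = 4.22e-05, 0.00934, 0.0257, 0.0115 and 0.00557). All 5 rises passed without MI 1 and MI_soft 2, but with limma-voom Tnnt3 (adjusted p = 0.153), Tnnt1 (0.158) and Myoz1 (0.104) missed the threshold. Tnnt1 was lost under 6 alternatives in all, among them leaving out MI_soft 2, Sham 1, Sham 2 or Sham 4. With limma on log2(TPM + 0.1) Xirp1 missed it (adjusted p = 0.0735).

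In MI_stiff against Sham, 2 of the 43 were higher and 15 lower, with a median of -0.56, where 12.7% of all genes were higher and 8.44% lower. Myh6 fell by 2.19 ± 0.41, Smyd1 fell by 1.95 ± 0.31, Nexn fell by 1.76 ± 0.35, Xirp1 fell by 1.66 ± 0.40 and Fhod3, a formin that builds actin filaments in heart muscle, fell by 1.43 ± 0.30 (adjusted p = 0.000961, 0.000226, 0.00157, 0.00656 and 0.00266). Myl1 rose by 4.01 ± 0.75 (adjusted p = 0.00102) and Tpm3, a slow muscle and non-muscle tropomyosin, rose by 0.79 ± 0.20 (adjusted p = 0.0101). Myl1 missed the threshold with limma-voom (adjusted p = 0.0949), and Xirp1 (0.0651) and Fhod3 (0.0902) did with limma on log2(TPM + 0.1). In MI_stiff against MI, 4 of the 43 were lower, as were 0.694% of all genes: Tnnt1 fell by 4.30 ± 0.95, Myl1 fell by 3.24 ± 0.65, Tpm2 fell by 2.88 ± 0.53 and Pdlim3, a Z-disc LIM protein, fell by 0.89 ± 0.21 (adjusted p = 0.0387, 0.0254, 0.0191 and 0.0461). These 4 calls were not stable: of 27 alternatives, Tnnt1 missed the threshold under 20, Pdlim3 under 20, Myl1 under 10 and Tpm2 under 9, with adjusted p up to 0.219, 0.268, 0.115 and 0.0898 in that order. Leaving out MI 2, MI_stiff 2, MI_stiff 3 or MI_stiff 4 lost all 4 calls. Without MI 1 and MI_soft 2, Tnnt1 was -2.27 (adjusted p = 0.0735), Myl1 was -1.91, and 4 genes were higher and 5 lower. Of all 11491 genes then tested, 700 were higher and 376 lower. MI_soft against MI and MI_stiff against MI_soft gave 0 calls among the 43 with edgeR and all libraries. Without MI 1 and MI_soft 2 they gave 9 higher in the first, and 1 lower in the second. Of all 11491 genes then tested, 724 were higher in the first and 14 lower in the second. Without the 4 libraries with few genes detected, 44 genes were tested. In the first, with MI 1 as the one MI library, their median was -0.22. In the second, with 3 MI_soft libraries, 7 were lower, as were 152 of all 12098 genes.

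Within groups the members varied together to different degrees. Over the 16 libraries, deviations of log2 CPM from the group mean gave Pearson correlations of -0.64 to 0.87 between pairs of the 9 members other than Myl2, with a median of 0.57, as a description of libraries that share depth and tissue make-up. Myom2 stood apart with a median of -0.04 with the other members. The genes outside the set with the most similar deviations were Etfb (r = 0.96) and Dhrs7c (r = 0.93) for Tnnt2, Cox5b (0.90) and Prdx5 (0.89) for Tnni3, Ndufa13 (0.93) and Pank4 (0.92) for Tnnc1, and Mrpl45 (0.95) and Mrps28 (0.89) for Actc1. For Myl3 they were Brms1 and LOC100911841 (0.94 each), for Actn2 Dtnb and Gsk3a (0.96 each), for Tpm1 Mrps18a and Ndufb4 (0.92 each), for Myom2 Mapt (0.94) and Masp2 (0.91), for Mybpc3 Hpx and Hexd (0.83 each), and for Myl2 Hspa12a (0.78) and C1qtnf9 (0.77).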

How the data were processed

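mRNA from the infarct zone of 16 rat libraries was sequenced, 4 per group, with groups taken from the labels. The authors deposited expected counts per gene (estimated counts that need not be whole) and TPM for the same genes; the tools named in the submitters' processing notes are STAR 2.7.3a and RSEM 1.3.1, and the build is rn7. The annotation and strand option were not stated, so overlapping and antisense genes cannot be separated. Values were rounded to whole numbers, which altered 0.785% of the expected counts. Totals ran from 10940685 to 14456186 counts, and TMM factors from 0.759 to 1.3.

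All 16 libraries were fitted in one model with edgeR 4.0.16 (R 4.3.3; quasi-likelihood, robust, filter by expression, 11376 genes), which was checked on simulated counts; the biological coefficient of variation was 0.403. Alternatives used DESeq2 1.42.0, limma 3.58.1 (on TPM, and with voom on counts), RLE factors, other filters, TPM pseudocounts of 1 and 0.1, 2-group fits, a replicate block and fewer libraries. Intervals are 95%. Ratios and relative levels used exact permutation tests over 70 arrangements.

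The members and gene lists were chosen with earlier results of these data known. The text names all 10 members in every comparison, their isoform partners, up to 5 called rises and falls of the other sarcomere genes, and for each member the 2 most alike genes. The fit without MI 1 and MI_soft 2 (Tnnc2 over 40 TPM), and the mean of members without Myl2, were added after the data were seen.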

Additional observations from a re-analysis of the deposited data

Results flagged for a closer look

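In 8 of 64 sets of 4 libraries, 1 library stood far from the other 3 by Dixon's criterion, which chance meets in about 1 of 20 sets. In MI_soft, library 4 had 6765 CPM of Tnnt2, against 3447 to 3900 CPM in the others, and 2198 CPM of Actn2, against 1087 to 1171 CPM. On the TPM scale the same library stood less far off, at 5009 for Tnnt2, against 3512 to 4611, and 524 for Actn2, against 355 to 445. In MI_stiff, library 2 had 1099 CPM of Tnni3, against 1914 to 2074 CPM. In MI, library 3 had 2516 CPM of Tnni3, against 1829 to 1867 CPM, and library 2 had 776 CPM of Actn2, against 1257 to 1351 CPM. On the TPM scale MI 3 was below MI 1 for Tnni3, at 3583 against 3909. MI_stiff 2 for Tnni3 and MI 2 for Actn2 stayed the lowest of their groups. The log2 ratio of Tnnc2 to Tnnc1 was -4.99 in MI_soft 2, against -11.0 to -10.7 in the other MI_soft libraries, and -2.04 in MI 1, against -10.3 to -9.37 in the other MI libraries. The log2 ratio of Tnni1 to Tnni3 was -11.4 in Sham 2, against -12.0 in the other Sham libraries.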

How the results depend on the processing

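The count of members lower in MI against Sham stayed between 6 and 8 under all alternatives. In MI_soft against Sham it was 5, but 1 with limma on TPM (either pseudocount), 3 without a filter or with only the groups compared, 2 without MI 1 and MI_soft 2, and 2 to 7 when single libraries were left out. DESeq2 called Tpm1 (adjusted p = 0.0143) beside those 5, and the count was 7 without the libraries with few genes detected. In MI_stiff against Sham it was 9, and 5 with limma on TPM; 9 to 10 with single libraries left out. In MI_soft against MI it was 0, and 1 without MI 1 and MI_soft 2. In MI_stiff against MI it was 0, with DESeq2 1, without MI 1 and MI_soft 2 it was 2, and 0 to 2 with single libraries left out. In MI_stiff against MI_soft it was 0, with DESeq2 2, and 1 without the libraries with few genes detected. The number of all genes called moved further: in MI_soft against MI 3 became 1508 without MI 1, and in MI_stiff against MI 135 became 1254. The causes were not tested.

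Signs turned for values that had not passed a test, some of them large in size. Leaving out the libraries with few genes detected left MI 1 as the one MI library, taken to vary like the other groups. Without MI 1 and MI_soft 2, Tnnt2 in MI against Sham was 0.01. Without the libraries with few genes detected, Myl2 in MI against Sham was -0.53 and Tnnt2 and Actn2 in MI_soft against MI were 0.16 and -0.25 (MI 1 alone in MI), and Myl2 and Myom2 in MI_stiff against MI_soft were 0.04 and -0.10. With limma on TPM, Tnni3, Myl3 and Tpm1 in MI_stiff against MI were 0.01, 0.06 and 0.09, and Mybpc3 in MI_stiff against MI_soft was 0.04. Mybpc3 in MI_stiff against MI, at 0.00, ranged from -0.01 to 0.24, with 0.01, 0.02, 0.03 and 0.00 between. On log2(CPM + 1), Tnnc2/Tnnc1 in MI_stiff against MI_soft was 0.22, and the relative levels of Myl2 in MI_soft against Sham and Actn2 in MI_stiff against Sham were 0.02 and -0.01. With the mean taken without Myl2, the relative levels of Actc1, Actn2 and Tpm1 in MI against Sham were 0.01, 0.12 and 0.01, and those of Tnni3 and Actn2 in MI_stiff against MI were -0.05 and -0.08. With single libraries left out, Tnnt2 in MI against Sham ran from -0.33 to 0.01, Tnnt2 and Actn2 in MI_soft against MI from -0.37 to 0.13 and from -0.08 to 0.34, Mybpc3 in MI_stiff against MI from -0.11 to 0.16, and Myl2 and Myom2 in MI_stiff against MI_soft from -0.57 to 0.18 and from -0.11 to 0.30. The ratio Tnnc2/Tnnc1 ran from -0.14 to 1.87 in MI_soft against Sham, from -2.97 to 0.45 in MI_soft against MI, from -2.49 to 0.27 in MI_stiff against MI and from -0.72 to 1.28 in MI_stiff against MI_soft. On the log2(CPM + 1) scale, 4 ratios in MI against Sham passed at an adjusted exact permutation p of 0.0429 and 5 in MI_stiff against Sham at 0.0343. Tnnc2/Tnnc1 was among them in both, with Tnnc2 at 0.61 TPM or less in all these libraries but MI 1.

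Replicate numbers did not pair the libraries: same-numbered libraries of different groups had correlations of -0.2846 to 0.1763 (median -0.027). With the replicate block the member counts were 8 in MI against Sham, 4 in MI_soft against Sham, 9 in MI_stiff against Sham and 0 in the other comparisons; the 4 ratios called in MI_soft against Sham had an adjusted exact sign-flip permutation p of 0.188, in a design whose smallest p is 0.125.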
